A study of Mus musculus with 24 samples.

Results

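The 9 genes described here carry dietary carotenoids to retinoids and onward to retinoic acid: *Scarb1*, *Bco1*, *Bco2*, *Isx*, *Rbp2*, *Lrat*, *Aldh1a1*, *Aldh1a2*, and *Cyp26b1*. They were taken by symbol, through their Ensembl identifiers, from the 55536 genes of the deposited count table. They were chosen by their place in beta-carotene cleavage and vitamin A handling and selected on their TMM-scaled CPM (read counts scaled to a common library size corrected by the trimmed mean of M-values) across the 4 study groups, so levels and differences among these groups are given as a description and carry no test. The libraries were made from distal small intestine (ileum by the labels) of C57BL/6N mice of both sexes, which started the diets at 4 to 5 weeks of age. The CD group received a control diet with 10 kcal% fat and the HFD group a high-fat diet with 60 kcal% fat, neither with metformin. The CDmetf and HFDmetf groups were kept on the same diets for 20 weeks and then drank water with metformin, a drug against type 2 diabetes, for 10 weeks (50 mg/kg body mass/day). Each group held 6 libraries, 3 from males and 3 from females, named here by group, sex, and replicate number, such as HFD M2. Animals were housed 3 to a cage, and by the methods of the study each library came from a cage of its own.

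Beta-carotene enters enterocytes partly through the scavenger receptor SR-BI, which is the product of *Scarb1*, and is cleaved in the middle by BCO1 to give retinal, whereas BCO2 cleaves carotenoids off-centre in mitochondria. Retinal and retinol are carried in enterocytes by the binding protein RBP2, and retinol is esterified by LRAT for packing into chylomicrons. ALDH1A1 and ALDH1A2 oxidise retinal to retinoic acid, which CYP26B1 degrades, and retinoic acid induces the intestinal transcription factor ISX, a repressor of *Bco1* and *Scarb1*.

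Depth ranged from 1829690 reads assigned to genes (HFDmetf F2) to 40606442 (HFD F1), and all 9 genes passed the filter on low counts together with 13505 of the 55536 genes in all. The library CD M3 stood apart, with 85.4% of its reads on 10 genes against 9.22% to 36.6% in the other libraries. HFD M2 and HFD F2, as labelled, carried sex-linked transcripts of the opposite sex, with 3355 *Xist* reads in HFD M2 and 1 in HFD F2. The epithelial markers were present in every library, with a summed level of 4368 to 11690 CPM over 6 genes, and all 6 were above 0 throughout. The ileal markers were present less evenly: 5 distal genes summed to between 162 CPM in HFD M3 and 4658 CPM in CD M2, and *Fabp6*, the ileal bile acid binding protein, stood at 0.841 CPM in HFD M3. Markers of the proximal small intestine (7 genes, led by the lactase gene *Lct*) summed to between 44.5 CPM in CDmetf M2 and 5155 CPM in HFD M3. Colon markers were at or near 0 in 22 libraries and reached 11.7 CPM in CDmetf M2 and 9.07 CPM in HFDmetf M1, in both from *Car1*. In such bulk tissue fewer cells of a type and less RNA per cell cannot be told apart.

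Promoter stretches were available in the RefSeq table (GRCm38.p6) for 8 of the 9 genes, and for *Scarb1* none was matched. Those of *Bco1* (chr8:117095615-117095864, plus strand) and *Rbp2* (chr9:98490287-98490536, plus strand) are shown because these genes had the largest differences between the diets, and both carry the nuclear receptor hexamer AGGTCA close to the start. Each run holds the 250 bases before the annotated start, 5′ to 3′ on the strand of the gene, and the capitals mark every match listed after the runs.
Bco1: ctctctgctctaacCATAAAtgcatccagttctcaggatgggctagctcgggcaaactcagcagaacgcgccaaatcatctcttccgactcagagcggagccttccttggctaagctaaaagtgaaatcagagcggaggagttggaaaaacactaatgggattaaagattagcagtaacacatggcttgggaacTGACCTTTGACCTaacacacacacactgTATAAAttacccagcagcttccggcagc
Rbp2: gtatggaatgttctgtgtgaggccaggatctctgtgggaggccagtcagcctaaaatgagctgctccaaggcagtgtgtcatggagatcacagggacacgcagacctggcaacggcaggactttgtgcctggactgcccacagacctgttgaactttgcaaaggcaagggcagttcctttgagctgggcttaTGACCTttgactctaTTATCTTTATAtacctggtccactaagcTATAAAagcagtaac
In *Bco1* the capitals mark, from left to right, a CDX hexamer (TTTATG, opposite strand), a direct repeat of AGGTCA with 1 base between the copies (AGGTCANAGGTCA, opposite strand, bases −56 to −44), and a TATA hexamer (TATAAA, bases −28 to −23). This direct repeat, the type of element bound by PPAR and HNF4 receptors with their partners, was present in 11 of 32851 mouse promoter stretches of the same length (0.0335%), and each of its copies is also a match of the hexamer. In *Rbp2* they mark 1 copy of AGGTCA on the opposite strand (bases −58 to −53), a GATA hexamer (AGATAA, opposite strand, bases −43 to −38), and TATAAA on either strand, of which the match at −38 to −33 shares its first base with the GATA hexamer. Searched on both strands, AGGTCA alone was present in 14% of all stretches and among the 8 genes only in these 2, AGATAA in 9.99% (*Rbp2* and the second start of *Aldh1a1*), TTTATG in 10.8% (*Bco1*), and TATAAA in 12.4% (*Bco1*, *Rbp2*, *Bco2*, and *Cyp26b1*). The repeat with 5 bases between the copies (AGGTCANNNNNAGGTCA), the classical retinoic acid receptor element, was present in 3 stretches (0.00913%) and in none of these genes. These are matches of letters within 250 bases and not sites of binding.

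**Figure D1:**
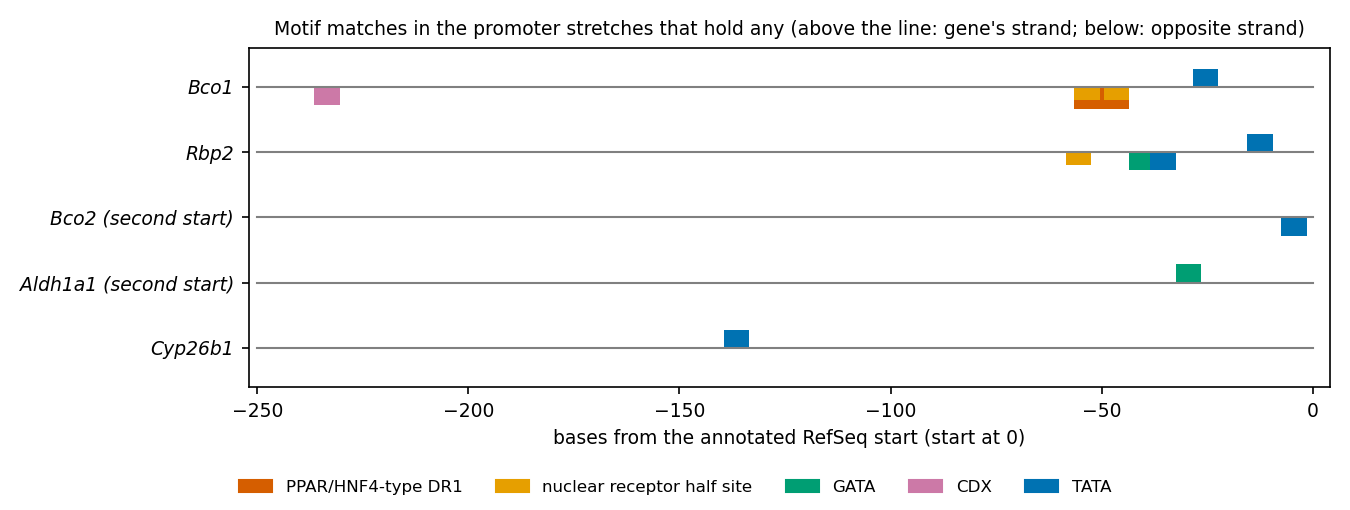
Motif matches in the promoter stretches of the 5 genes that hold any, by distance in bases from the annotated RefSeq start, where yellow is the receptor hexamer AGGTCA, orange its direct repeat, green GATA, pink CDX, and blue TATA. Boxes above a line match on the strand of the gene and boxes below it on the opposite strand. The direct repeat of *Bco1* at −56 to −44 is made of 2 hexamers, and the hexamer of *Rbp2* lies at −58 to −53.

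Per kilobase of exon, a scale on which genes can be compared, *Rbp2* had the highest median level over the 24 libraries (259 CPM per kb), followed by *Isx* (53.3), *Aldh1a1* (45.6), *Bco2* (16.2), *Lrat* (5.17), *Aldh1a2* (5.00), *Bco1* (3.48), *Cyp26b1* (1.56), and *Scarb1* (0.959). This order pools groups that differ in level: in CD the median of *Bco1* was 9.16 CPM per kb, above *Lrat* (5.33) and *Aldh1a2* (4.78), whereas in HFD it was 2.12, below *Lrat* (6.06) and *Aldh1a2* (4.09). The ranges of neighbours in the order overlapped: *Rbp2* spanned 30.9 to 2806 CPM per kb and *Isx* 27.0 to 92.6 CPM per kb. The lower end of the order depended on the length used, the union of exons, which was 8.5 kb for *Scarb1* and 2.54 kb for *Bco1*. Before division by length the medians were 8.15 CPM for *Scarb1*, 8.35 CPM for *Cyp26b1*, and 8.85 CPM for *Bco1*. The genes also differed in how much they varied. The highest library exceeded the lowest 90.9-fold for *Rbp2*, 46.6-fold for *Bco1*, and 25.9-fold for *Scarb1*, but 3.43-fold for *Isx*, 3.17-fold for *Lrat*, and 2.71-fold for *Aldh1a2*. The SD of log2 CPM of *Rbp2* over the libraries was 1.84, at the 99.1st percentile of the genes tested, and that of *Bco1* was 1.44, at the 98.2nd percentile.

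*Scarb1* (chromosome 5, 125277087 to 125341094, minus strand, GRCm38), the carotenoid uptake receptor, ranged from 5.00 to 17.5 CPM in CD (median 7.10), from 6.13 to 16.99 CPM in CDmetf (median 9.20), from 1.33 to 34.5 CPM in HFD (median 7.96), and from 5.44 to 17.5 CPM in HFDmetf (median 12.2). The HFD group thus held both the lowest library, HFD F2 with 3 reads, and the highest, HFD M3, and all groups overlapped. Its logFC was 0.25 (SE = 0.454) for HFD vs. CD and 0.12 (SE = 0.449) for CDmetf vs. CD, both smaller than the standard error. Without HFD M3 the first of these turned to −0.33, and without CDmetf F1 the second turned to −0.086. For HFDmetf vs. HFD it was 0.09 (SE = 0.455), and −0.38 (SE = 0.473) with a score of the epithelial markers as a covariate. The 5 adipocyte markers summed to 341 CPM in CD F2 and 370 CPM in HFDmetf M1, where *Scarb1* stood at 17.5 CPM. They summed to 8.42 CPM in HFD F2, 111 CPM in HFD M3, and 20.2 CPM in CDmetf F1, where *Scarb1* stood at 13.4 CPM. The part of adipocytes in the *Scarb1* levels was not tested.

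*Bco1* (ENSMUSG00000031845, chromosome 8, 117095854 to 117133720, plus strand), whose product cleaves beta-carotene to retinal, had lower medians in both high-fat groups than in both control-diet groups. It ranged from 4.66 to 74.0 CPM in CD (median 23.3), from 5.87 to 27.8 CPM in CDmetf (median 15.99), from 1.59 to 28.6 CPM in HFD (median 5.39), and from 1.65 to 21.7 CPM in HFDmetf (median 5.72). Of the CD libraries 5 stood at 9.66 CPM or above, and of the HFD libraries 5 stood at 6.49 CPM or below. The exceptions were CD M3 (4.66 CPM) and HFD M3 (28.6 CPM), so that the groups overlapped. The logFC for HFD vs. CD was −2.04 (SE = 0.671). It was −2.39 (SE = 0.604) without CD M3 and −2.21 (SE = 0.808) without HFD M2 and HFD F2. Without HFD F3 it was −1.65, by DESeq2 −1.89 (SE = 0.656), and by limma-voom −3.09 (SE = 0.660). In metformin-treated animals the logFC for the diet was −0.86 (SE = 0.651), with −1.39 without HFDmetf F1 and −0.26 (SE = 0.687) with a score of the epithelial markers as a covariate. The corresponding values for metformin were −0.93 (SE = 0.610) in CDmetf vs. CD and 0.25 (SE = 0.701) in HFDmetf vs. HFD. CDmetf vs. CD was −0.59 without CD F3. HFDmetf vs. HFD turned to −0.29 without HFDmetf F1 and stood at 1.04 without HFD M3, and it also depended on the tool, at 1.68 (SE = 0.730) by limma-voom and −0.06 (SE = 0.665) by DESeq2. The lowest library was HFD F3, at 1.59 CPM from 65 reads, whereas HFDmetf F2, at 1.65 CPM, rested on 3 reads.

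*Bco2* (chromosome 9, 50533087 to 50555181, minus strand) encodes the mitochondrial enzyme of asymmetric cleavage. It ranged from 12.9 to 47.6 CPM in CD (median 24.03), from 3.52 to 44.4 CPM in CDmetf (median 13.9), from 32.9 to 55.1 CPM in HFD (median 40.05), and from 7.99 to 43.1 CPM in HFDmetf (median 35.9). All 6 HFD libraries stood at 32.9 CPM or above, while 4 of the 6 CDmetf libraries stood between 3.52 and 14.004 CPM. Its logFC was 0.61 (SE = 0.415) for HFD vs. CD and 0.65 (SE = 0.429) for HFDmetf vs. CDmetf, and it was −0.55 (SE = 0.419) for CDmetf vs. CD and −0.52 (SE = 0.417) for HFDmetf vs. HFD. Without HFD M2 and HFD F2 the values were 0.35 (SE = 0.471) for HFD vs. CD and −0.22 (SE = 0.494) for HFDmetf vs. HFD. With single libraries left out, HFDmetf vs. CDmetf reached 0.34 without HFDmetf M2, CDmetf vs. CD reached −0.23 without CD M1, and HFDmetf vs. HFD lay between −0.93 without HFDmetf M2 and −0.26 without HFDmetf M1. With the epithelial score as a covariate HFDmetf vs. HFD was −0.057 (SE = 0.405). *Bco2* overlaps *Il18* on the other strand, and the strand setting of the counting was not given in the sources used here, so reads of the overlap could belong to either gene. The same holds for *Lrat*, *Aldh1a1*, and *Aldh1a2*, which overlap non-coding genes or pseudogenes on the other strand. *Scarb1*, *Bco1*, and *Rbp2* overlap *Gm42633*, *Gm20694*, and *Gm37113* on their own strand, which no strand setting separates. How reads of such an overlap were counted was not given in the sources used here.

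*Isx* (chromosome 8, 74873173 to 74893506, plus strand), the retinoic acid-induced repressor, was steadier. It ranged from 66.9 to 111 CPM in CD (median 82.6), from 74.4 to 166 CPM in CDmetf (median 114), from 48.4 to 126 CPM in HFD (median 85.7), and from 79.3 to 113 CPM in HFDmetf (median 97.0). The CDmetf group held the highest libraries, CDmetf M2 and CDmetf F2, and the logFC for CDmetf vs. CD was 0.48 (SE = 0.172). Without CD M3 this was 0.65 (SE = 0.155). The diet difference was −0.05 (SE = 0.173) in HFD vs. CD and −0.30 (SE = 0.172) in HFDmetf vs. CDmetf, of which the first turned to 0.095 without CD M3.

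**Figure D2:**
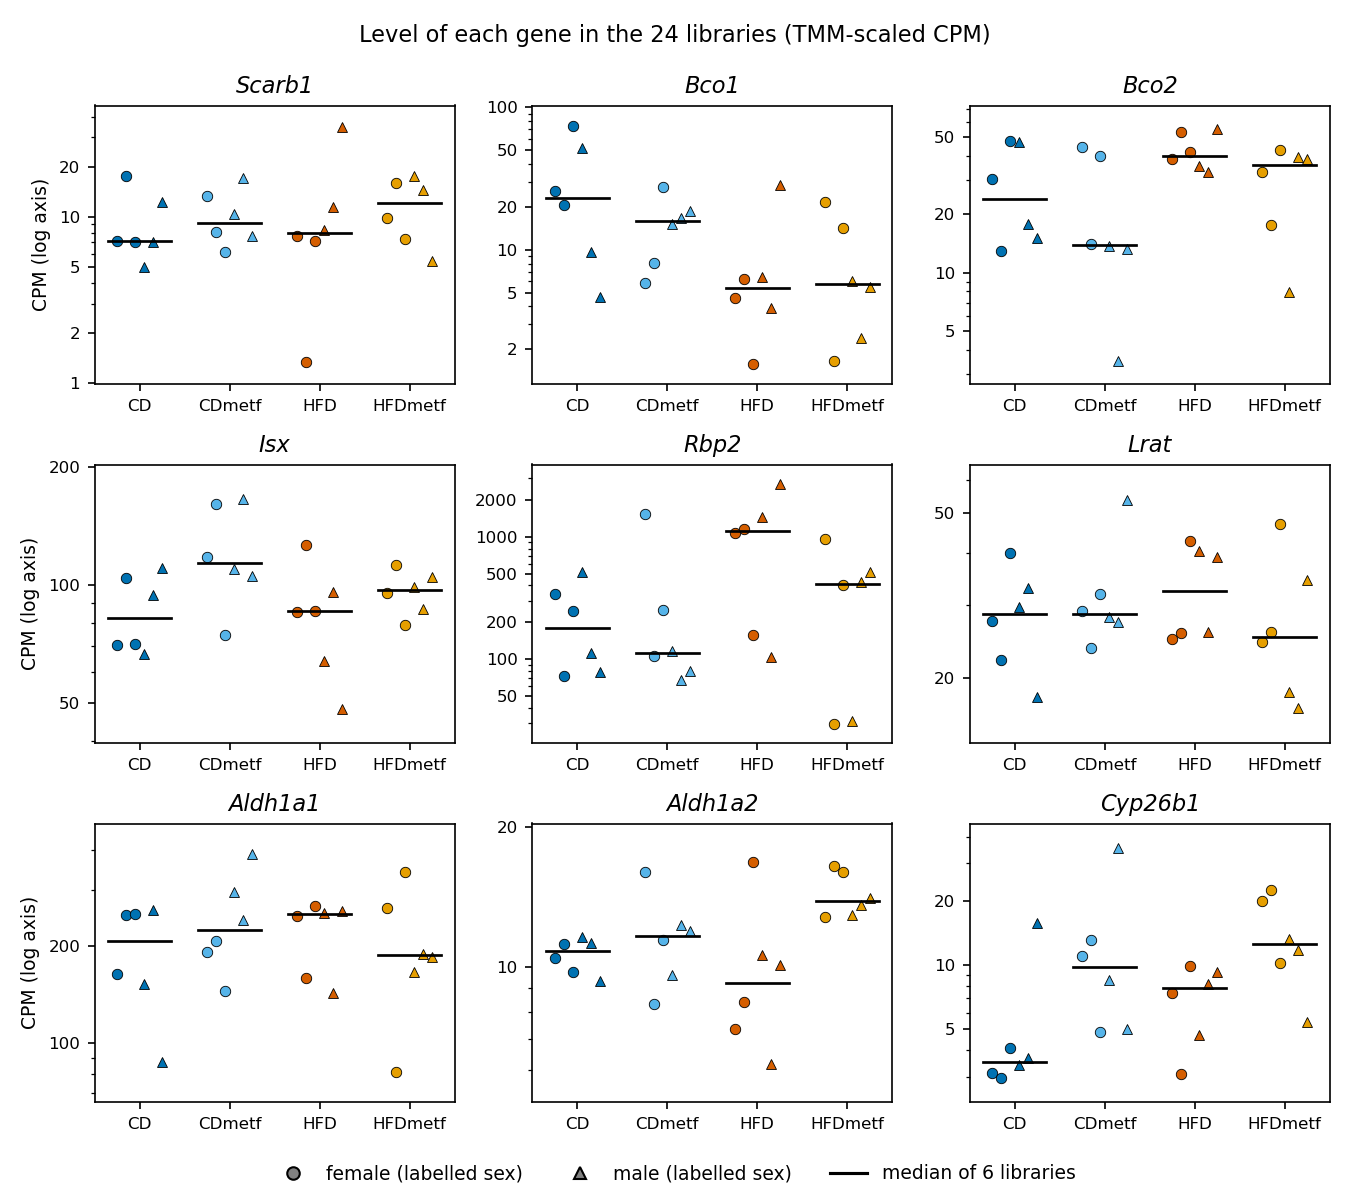
TMM-scaled CPM (log axis) of the 9 genes in each of the 24 libraries, by group, with circles for libraries labelled female, triangles for those labelled male, and a line at the median of the 6 libraries. For *Bco1* 5 of 6 HFD libraries lie at 6.49 CPM or below, for *Rbp2* the HFD libraries divide into 4 at 1079 CPM or above and 2 at 157 CPM or below, and for *Cyp26b1* CD M3 lies apart from the other CD libraries.

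Whether the repressor and its targets ran against each other was examined on log2 CPM after subtracting the mean of each group, so that differences between groups did not enter. *Isx* and *Bco1* were inversely related over the 24 libraries (r = −0.587, permutation p = 0.00298, adjusted over 4 pairs 0.0119; rho = −0.612, permutation p = 0.00275, adjusted 0.0110). Without the 2 libraries farthest from the median of *Isx*, r was −0.452. Within the replicate numbers, 8 libraries each, it was −0.311, 0.683, and −0.859, so the relation did not hold within number 2. With sex and replicate number also fitted, r was −0.49 (permutation, adjusted p = 0.126), and with the epithelial score fitted it was −0.459 (permutation, adjusted p = 0.2). To the proximal markers *Isx* had r = −0.582 and *Bco1* r = 0.45, and the relation of the pair with those markers fitted was not tested. The pair *Isx* and *Scarb1* gave r = −0.192 (permutation p = 0.502, adjusted 0.502; rho = 0.188, permutation p = 0.407, adjusted 0.407), with r between −0.510 and 0.624 within the replicate numbers and −0.0240 without the 2 farthest libraries. *Bco1* and *Rbp2* gave r = 0.469 (permutation p = 0.0313, adjusted 0.0626; rho = 0.423, permutation p = 0.0576, adjusted 0.115), with r of 0.39 without the 2 farthest libraries and 0.0501, 0.179, and 0.781 within the replicate numbers. *Rbp2* and *Lrat* gave r = 0.200 (permutation p = 0.403, adjusted 0.502; rho = 0.238, permutation p = 0.317, adjusted 0.407), with r of 0.123 without the 2 farthest libraries and between −0.409 and 0.563 within the replicate numbers. Values of a pair share the scaling factor of the library.

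*Rbp2* (ENSMUSG00000032454, chromosome 9, 98486115 to 98509781, plus strand), the retinal and retinol carrier of the enterocyte, showed the widest spread. It ranged from 72.9 to 514 CPM in CD (median 180), from 67.7 to 1540 CPM in CDmetf (median 112), from 103 to 2700 CPM in HFD (median 1121), and from 29.7 to 953 CPM in HFDmetf (median 413). In the HFD group 4 libraries stood between 1079 and 2700 CPM, above all 6 CD libraries, whereas HFD F3 (157 CPM) and HFD M2 (103 CPM) lay within the CD range. The logFC for HFD vs. CD was 2.57 (SE = 0.843). It was 2.40 (SE = 0.957) without HFD M2 and HFD F2 and 1.69 without HFD M3. In metformin-treated animals the diet difference was 0.72 (SE = 0.846), between 0.15 without HFDmetf M2 and 1.51 without CDmetf F1. HFDmetf stood below HFD with a logFC of −1.51 (SE = 0.806), which was −0.52 without HFD M3 and −0.53 (SE = 0.852) with the epithelial score as a covariate. The epithelial markers had a median sum of 7689 CPM in HFDmetf and 10116 CPM in HFD. For CDmetf vs. CD the logFC was 0.33 (SE = 0.816), and without the single high library CDmetf F1 it was −0.59.

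*Lrat* (chromosome 3, 82892579 to 82903973, minus strand), which esterifies the retinol that RBP2 carries, did not share that spread. Its medians were 28.5 CPM in CD, 28.5 CPM in CDmetf, 32.4 CPM in HFD, and 25.1 CPM in HFDmetf, and its range over all 24 libraries was 16.9 to 53.7 CPM. Its logFC lay between −0.27 (SE = 0.206) for HFDmetf vs. HFD and 0.18 (SE = 0.204) for HFD vs. CD.

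The retinal dehydrogenases differed from each other in level. *Aldh1a1* (chromosome 19, 20492715 to 20643465, plus strand) had medians of 208 CPM in CD, 225 CPM in CDmetf, 252 CPM in HFD, and 188 CPM in HFDmetf, with a range of 81.4 to 389 CPM, and its logFC lay between −0.28 (SE = 0.304) for HFDmetf vs. CDmetf and 0.30 (SE = 0.305) for CDmetf vs. CD. *Aldh1a2* (chromosome 9, 71215789 to 71296243, plus strand), known from intestinal dendritic cells and stroma, ranged from 9.32 to 11.6 CPM in CD (median 10.8), from 8.34 to 15.98 CPM in CDmetf (median 11.7), from 6.20 to 16.8 CPM in HFD (median 9.26), and from 12.8 to 16.5 CPM in HFDmetf (median 13.8). All HFDmetf libraries stood above 5 of the 6 HFD libraries, the exception being HFD F3 at 16.8 CPM. The logFC for HFDmetf vs. HFD was 0.51 (SE = 0.194), and 0.34 (SE = 0.210) without HFD M2 and HFD F2. The summed level of the 5 dendritic cell markers moved in the same direction. Its median was 30.4 CPM in HFD (range 16.4 to 38.5) and 39.1 CPM in HFDmetf (range 29.0 to 48.9). The single markers did not all follow the sum. *Itgax* reached 22.8 CPM in HFD and 35.98 CPM in HFDmetf, whereas *Ccr7* reached 5.73 CPM in HFD and 1.65 CPM in HFDmetf. The median sum of the 5 fibroblast markers was also higher in HFDmetf (367 CPM in HFD and 480 CPM in HFDmetf). The part of the dendritic cells and fibroblasts in the *Aldh1a2* difference was not tested.

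*Cyp26b1* (chromosome 6, 84571414 to 84593908, minus strand), which clears retinoic acid, was lowest under the control diet without the drug. In CD 5 libraries lay between 2.97 and 4.10 CPM and CD M3 at 15.8 CPM (median 3.53). In CDmetf it ranged from 4.85 to 35.4 CPM (median 9.82), in HFD from 3.10 to 9.93 CPM (median 7.79), and in HFDmetf from 5.44 to 22.5 CPM (median 12.5). All CDmetf and HFDmetf libraries thus stood above the 5 lower CD libraries. The logFC was 1.12 (SE = 0.516) for CDmetf vs. CD, 0.50 (SE = 0.503) for HFD vs. CD, and 0.90 (SE = 0.488) for HFDmetf vs. HFD. Without CD M3 the values were 1.72 (SE = 0.439) for CDmetf vs. CD and 1.147 (SE = 0.436) for HFD vs. CD, and by limma-voom the latter was 0.91 (SE = 0.440). It was 0.26 without HFD F3. HFDmetf vs. HFD was 0.28 (SE = 0.434) with the epithelial score as a covariate. In CDmetf vs. CD the value was 0.61 without CDmetf M2, the library at 35.4 CPM.

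Across the whole table edgeR called 0 of 13505 genes (0%) at FDR under 0.05 in each of the 4 comparisons and in the interaction of diet and metformin, and accordingly 0 of the 9 genes. At an unadjusted p under 0.05 the shares of all genes were 4.75% in HFD vs. CD, 7.55% in HFDmetf vs. CDmetf, 6.87% in HFDmetf vs. HFD, 5.00% in CDmetf vs. CD, and 5.76% for the interaction. The 9 genes gave 2 (*Bco1* lower and *Rbp2* higher), 0, 1 (*Aldh1a2* higher), 2 (*Isx* and *Cyp26b1* higher), and 0, from which nothing is read since the genes were selected on these groups. limma-voom called 0 of 13505 genes (0%) in the 4 comparisons and the interaction. DESeq2 called 12 (0.0889%) in HFD vs. CD, 4 (0.0296%) in CDmetf vs. CD, 4 (0.0296%) in the interaction, and 0 in the others, none of them among the 9. limma-voom with sample quality weights called 14 (0.104%) in HFD vs. CD, among them *Bco1* (logFC = −3.07, SE = 0.527). Nothing is read from this call either, since *Bco1* was selected on these groups. The same method called 52 (0.385%) in HFDmetf vs. CDmetf, 276 (2.04%) in the interaction, and 0 in the others, with none of the 9 among these. The comparisons share groups with each other, so that the low *Bco1* and high *Rbp2* levels of HFD enter both HFD vs. CD and HFDmetf vs. HFD. The median logFC of the 9 genes was 0.18 in HFD vs. CD, 0.22 in HFDmetf vs. CDmetf, 0.09 in HFDmetf vs. HFD, and 0.13 in CDmetf vs. CD, beside medians of 0.0089, 0.025, −0.0088, and −0.016 over all genes tested.

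**Figure D3:**
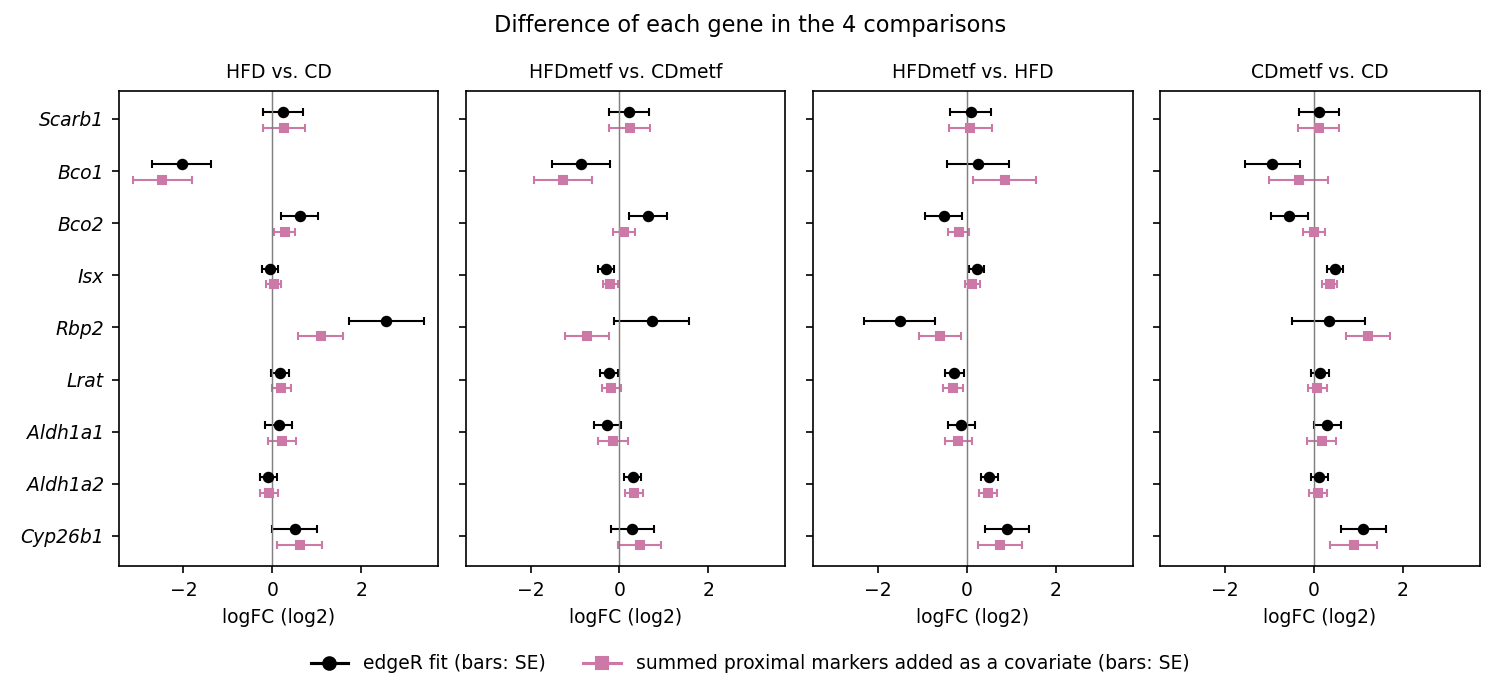
logFC of the 9 genes in the 4 comparisons, as points with bars of 1 SE. Black circles are the edgeR fit and pink squares the same fit with the summed level of the proximal markers as a further covariate. *Rbp2* in HFD vs. CD moves from 2.57 to 1.08 with that covariate, whereas *Bco1* is at −2.04 and −2.47. In CDmetf vs. CD *Bco1* moves from −0.93 to −0.34.

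The spread of *Rbp2* and *Bco2* ran along the proximal markers, a relation looked at after the marker sums had been seen. On deviations from the group means, the correlation with the log2 summed level of the 7 proximal markers was r = 0.862 for *Rbp2* (permutation p = 1e-05, the smallest that 100000 resamples can give; adjusted over 18 relations 0.00018; rho = 0.829, permutation p = 1e-05, adjusted 0.00018) and r = 0.844 for *Bco2* (permutation p = 2e-05, adjusted 0.00018; rho = 0.883, permutation p = 4e-05, adjusted 0.00036). Within the replicate numbers, 8 libraries each, r was 0.947, 0.751, and 0.755 for *Rbp2* and 0.916, 0.698, and 0.881 for *Bco2*. Without the 2 libraries farthest from the median r was 0.867 for *Rbp2* and 0.836 for *Bco2*. With the 5 distal markers the signs were opposite, at r = −0.711 for *Rbp2* (permutation p = 0.00012, adjusted 0.00072; rho = −0.668, permutation p = 0.00108, adjusted 0.00648) and r = −0.565 for *Bco2* (permutation p = 0.00406, adjusted 0.0146; rho = −0.62, permutation p = 0.00261, adjusted 0.0094), and r kept its sign within each replicate number and without the 2 farthest libraries (−0.612 and −0.512).

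*Isx* stood on the other side, with r = −0.582 to the proximal markers (permutation p = 0.00335, adjusted 0.0146; rho = −0.614, permutation p = 0.00238, adjusted 0.0094) and r = 0.598 to the distal ones (permutation p = 0.00696, adjusted 0.0209; rho = 0.579, permutation p = 0.00718, adjusted 0.0215). Without the 2 farthest libraries these were −0.638 and 0.539. Within the replicate numbers the relation of *Isx* to the proximal markers was −0.178, −0.166, and −0.673, and to the distal ones 0.155, 0.536, and 0.697, so that the relation to the proximal markers rested on number 3 and that to the distal ones was weak in number 1. For *Bco1* r to the proximal markers was 0.45 (permutation p = 0.0303, adjusted 0.0779; rho = 0.43, permutation p = 0.0487, adjusted 0.125), and 0.564 without the 2 farthest libraries, with 0.0327, 0.114, and 0.63 within the replicate numbers. For *Scarb1*, *Lrat*, *Aldh1a1*, *Aldh1a2*, and *Cyp26b1* no relation to either marker sum passed the threshold after adjustment.

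The proximal sum moved with the groups as well, with medians of 1324 CPM in CD (range 81.5 to 3782), 100 CPM in CDmetf (44.5 to 3289), 1926 CPM in HFD (517 to 5155), and 1272 CPM in HFDmetf (81.9 to 2743). *Lct* alone spanned 0.769 to 3238 CPM over the libraries, and 2 of the 7 markers were at 0 in CDmetf M2. *Fabp1*, an enterocyte fatty acid binding protein gene among these markers that is known to respond to fatty acids, ranged from 6.01 to 106 CPM in CD and from 4.57 to 1709 CPM in HFD. Whether the sum marks the position of the tissue piece or also follows the diet cannot be told apart. With the sum as a covariate, the logFC of *Rbp2* was 1.08 (SE = 0.496) for HFD vs. CD, −0.73 (SE = 0.501) for HFDmetf vs. CDmetf, −0.59 (SE = 0.475) for HFDmetf vs. HFD, and 1.22 (SE = 0.487) for CDmetf vs. CD. That of *Bco2* was 0.28 (SE = 0.232) for HFD vs. CD and −0.01 (SE = 0.248) for CDmetf vs. CD. That of *Bco1* for HFD vs. CD was −2.47 (SE = 0.658), and −2.04 (SE = 0.671) without the covariate. For *Bco1* it was −1.27 (SE = 0.657) in HFDmetf vs. CDmetf, 0.86 (SE = 0.708) in HFDmetf vs. HFD, and −0.34 (SE = 0.665) in CDmetf vs. CD. Without the covariate these were −0.86, 0.25, and −0.93. The part of tissue position in these differences was not tested.

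**Figure D4:**
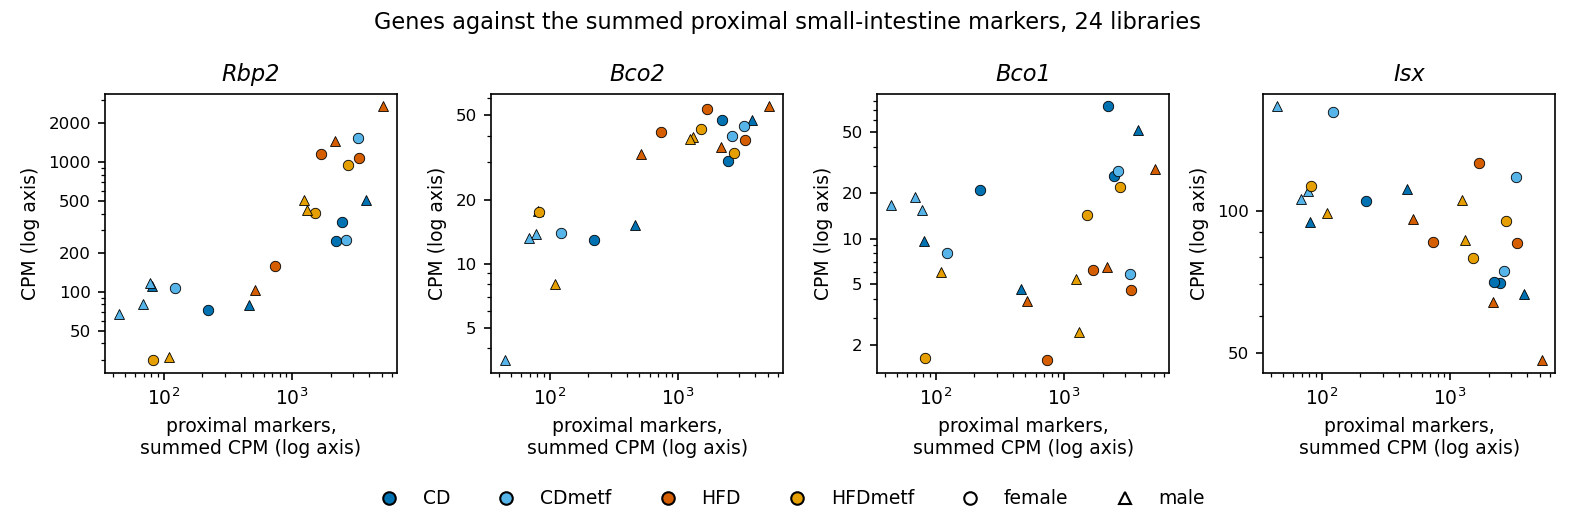
CPM of *Rbp2*, *Bco2*, *Bco1*, and *Isx* against the summed CPM of the 7 proximal small-intestine markers (both axes log) in the 24 libraries, coloured by group, with circles for libraries labelled female and triangles for those labelled male. *Rbp2* and *Bco2* are high where the markers are high (r = 0.862 and 0.844 within groups), *Isx* is low there (r = −0.582), and low *Bco1* levels of HFD libraries occur also at high marker levels.

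Sex was not used in the choice of the genes and could be tested. None of the 9 genes passed the threshold in females vs. males, and none reached an unadjusted p under 0.05, beside 1 gene (0.00740%) and 977 genes (7.23%) of all tested. limma-voom, limma-voom with sample quality weights, and DESeq2 also called 0 of the 9, and 1 (0.00740%), 12 (0.0889%), and 22 (0.163%) of all genes. The differences furthest from 0 were those of *Scarb1* (9.03 ± 4.51 CPM in females and 12.6 ± 8.07 CPM in males; mean ± SD, n = 12 each; logFC = −0.47, SE = 0.320, FDR = 0.728) and *Bco2* (34.7 ± 13.4 and 26.7 ± 16.8 CPM; logFC = 0.47, SE = 0.299, FDR = 0.714). Without HFD M2 and HFD F2, whose labels the sex-linked transcripts contradict, these were −0.39 (SE = 0.286) and 0.41 (SE = 0.321). *Lrat* (30.4 CPM in both sexes; logFC = −0.0061, SE = 0.145) and *Aldh1a1* (214 and 219 CPM; logFC = −0.0040, SE = 0.216) had the differences closest to 0. Of 36 tests of whether a comparison of groups differed between females and males in 1 of the 9 genes, 0 passed (smallest FDR = 0.927). Over all genes tested 0 passed in any of the 4 comparisons. An unadjusted p under 0.05 was found in 4 of the 36. Nothing is read from this count, since the share over all genes was not computed and the genes were selected on these groups.

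Of 50 other genes of the retinoid pathway 39 passed the filter on low counts: 9 of 12 for uptake and transport, 15 of 17 for the interconversion of retinol and retinal, 4 of 6 for ester formation and hydrolysis, 4 of 6 receptors, all 5 genes known as retinoic acid targets, both other synthesis genes, and 0 of 2 other clearance genes (*Cyp26a1* and *Cyp26c1*), which left *Cyp26b1* as the one clearance gene measured above the filter. In HFD vs. CD edgeR called 0 of 39 and 2 had an unadjusted p under 0.05, beside 4.75% of all genes, both of them higher, as were 25 of the 39 in sign, beside 52% of all genes tested. *Retsat*, a retinol saturase, was at 41.2 ± 13.3 CPM in CD and 109 ± 52.03 CPM in HFD (mean ± SD, n = 6 each; logFC = 1.33, SE = 0.384, FDR = 0.995). *Dhrs4*, a retinal reductase, was at 37.2 ± 6.68 and 60.0 ± 12.1 CPM (logFC = 0.68, SE = 0.217, FDR = 0.995). *Itga4*, an integrin subunit of gut-homing lymphocytes, was at 27.0 ± 4.75 and 35.3 ± 12.1 CPM (logFC = 0.42, SE = 0.240, FDR = 0.995).

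In HFDmetf vs. CDmetf edgeR called 0 of 39, and 4 had an unadjusted p under 0.05, all higher, beside 7.55% of all genes. *Retsat* (56.4 ± 51.7 CPM in CDmetf and 97.3 ± 39.97 CPM in HFDmetf; logFC = 1.02, SE = 0.387, FDR = 0.626) and *Dhrs4* (40.5 ± 20.5 and 56.9 ± 15.1 CPM; logFC = 0.57, SE = 0.219, FDR = 0.626) again stood first, followed by *Rdh13*, a mitochondrial retinol dehydrogenase (logFC = 0.42, SE = 0.170, FDR = 0.626). With the proximal markers as a covariate the logFC of *Retsat* was 1.02 (SE = 0.324) for HFD vs. CD and 0.65 (SE = 0.324) for HFDmetf vs. CDmetf. By limma-voom with sample quality weights, which called 0.385% of all genes in HFDmetf vs. CDmetf, *Dhrs4* passed the threshold (logFC = 0.79, SE = 0.176, FDR = 0.0499).

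For metformin, edgeR called 0 of 39 and 3 had an unadjusted p under 0.05 in HFDmetf vs. HFD, beside 6.87% of all genes. These 3 had lower levels and belong to the retinol dehydrogenases, as do many of the 15 interconversion genes tested: *Rdh9* (11.8 ± 2.61 CPM in HFD and 6.92 ± 4.41 CPM in HFDmetf; logFC = −0.82, SE = 0.303), *Rdh16* (10.1 ± 4.22 and 6.15 ± 4.28 CPM; logFC = −0.77, SE = 0.306), and *Rdh14* (20.4 ± 5.36 and 15.8 ± 6.11 CPM; logFC = −0.36, SE = 0.170), each with FDR = 0.620. *Rdh9* and *Rdh16* belong to a family of close relatives, so the assignment of their reads is uncertain. With the epithelial score as a covariate the logFC was −0.45 (SE = 0.234) for *Rdh9*, −0.44 (SE = 0.260) for *Rdh16*, and −0.18 (SE = 0.162) for *Rdh14*. Without HFD M2 and HFD F2 the values were −0.51 (SE = 0.312), −0.74 (SE = 0.336), and −0.38 (SE = 0.185), in the same order. In CDmetf vs. CD edgeR called 0, and 1 had an unadjusted p under 0.05, beside 5.00% of all genes, *Itga4* (39.5 ± 16.8 CPM in CDmetf; logFC = 0.54, SE = 0.238, FDR = 0.963), while the summed lymphoid markers ranged from 6.87 to 53.05 CPM in CD and from 7.62 to 245 CPM in CDmetf. The next genes were *Rdh13* (logFC = −0.32, SE = 0.169, FDR = 0.963) and the acyltransferase gene *Dgat1* (logFC = −0.51, SE = 0.308, FDR = 0.963). For the interaction edgeR called 0, and 1 had an unadjusted p under 0.05, beside 5.76% of all genes, again *Itga4* (−0.78, SE = 0.339, FDR = 0.815), followed by *Itgb7* (−0.98, SE = 0.508, FDR = 0.815) and *Lpl* (2.71, SE = 1.41, FDR = 0.815). limma-voom with sample quality weights, which called 2.04% of all genes, placed *Itgb7* past the threshold (−1.88, FDR = 0.0184). The part of the lymphoid cells in the *Itga4* values was not tested.

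Between the sexes edgeR called 0 of 39, and 5 had an unadjusted p under 0.05, beside 7.23% of all genes. *Rdh16* was at 9.31 ± 3.84 CPM in females and 5.06 ± 2.86 CPM in males (mean ± SD, n = 12 each; logFC = 0.94, SE = 0.215, FDR = 0.245). DESeq2 placed it past the threshold (FDR = 0.0239), and without HFD M2 and HFD F2 its logFC was 0.86 (SE = 0.224, FDR = 0.420). *Lpl*, the lipoprotein lipase gene (logFC = −1.66, SE = 0.723), and *Hic1*, a retinoic acid-responsive transcription factor gene (logFC = −0.50, SE = 0.219), were lower in females, each with FDR = 0.681. The adipocyte markers, where *Lpl* is also expressed, summed to between 7.98 and 387 CPM over the libraries.

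**Figure D5:**
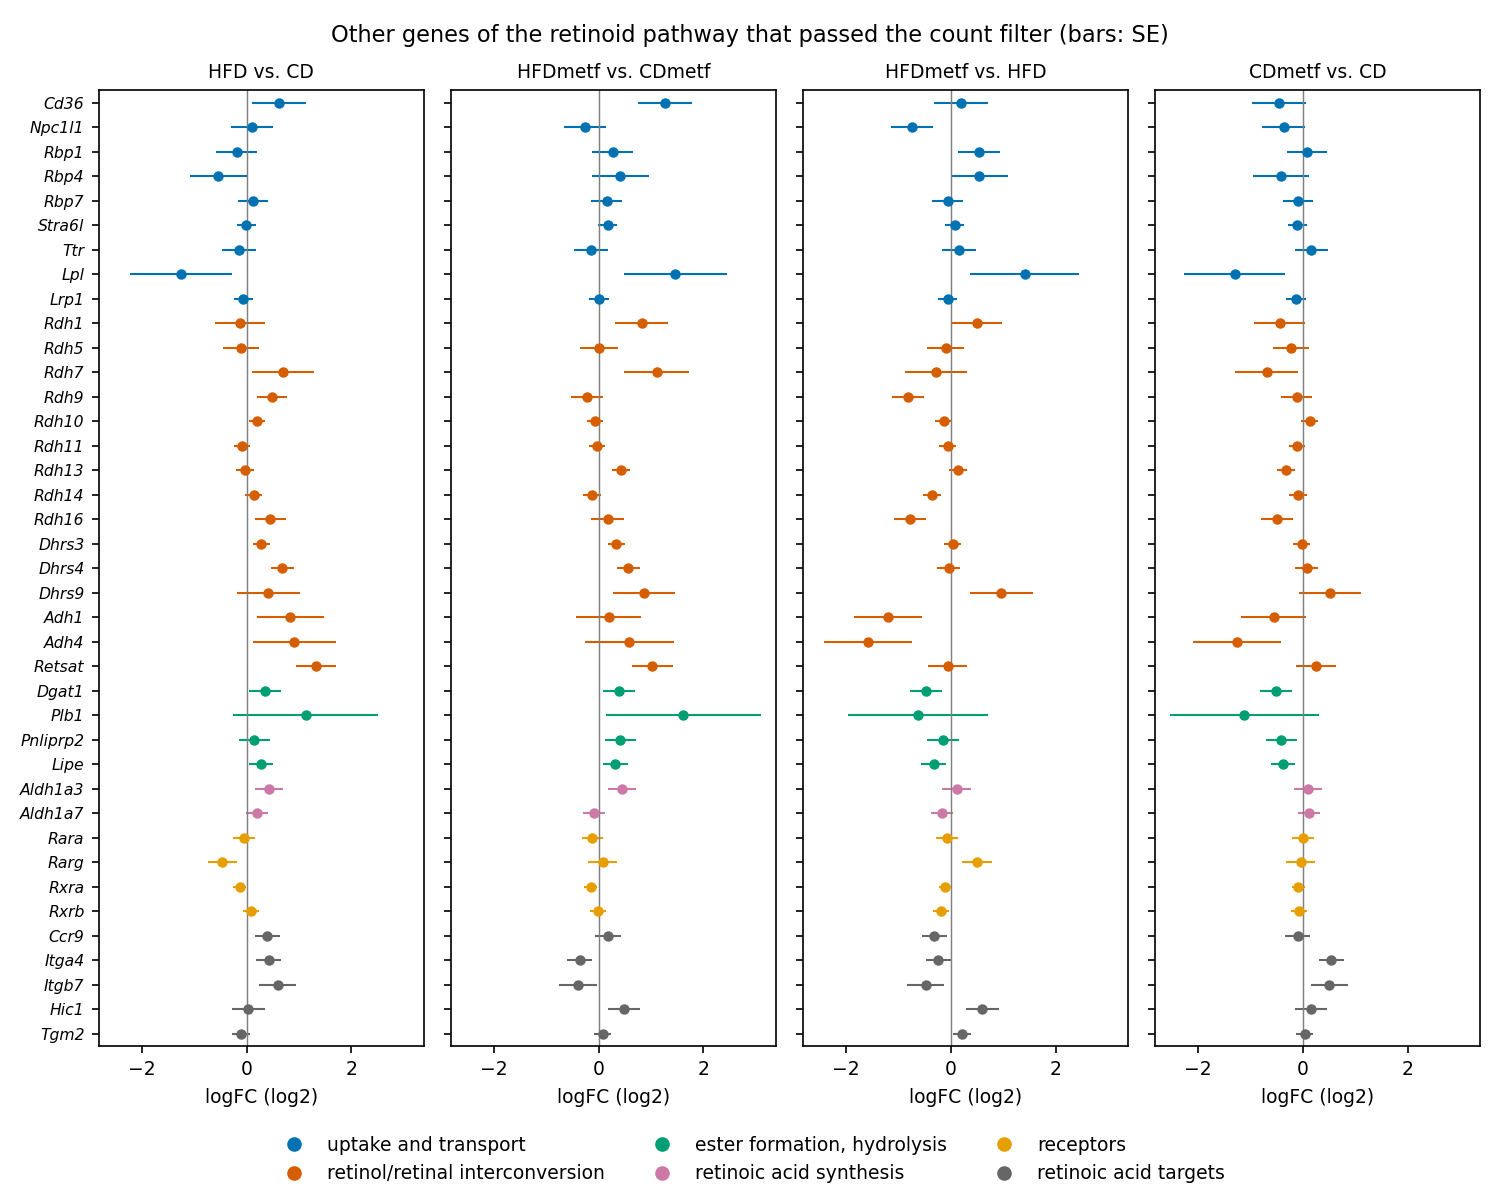
logFC (points) with bars of 1 SE for the 39 other retinoid pathway genes that passed the count filter, in the 4 comparisons, coloured by role. *Retsat* and *Dhrs4* stand to the right in both diet comparisons, *Rdh9*, *Rdh16*, and *Rdh14* to the left in HFDmetf vs. HFD, and no gene passed the FDR threshold in this edgeR fit.

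The genes whose levels were most like those of a member were found by Spearman correlation of log2 CPM over the 24 libraries among all genes tested, as a description. For *Rbp2* they were *Treh* (the brush-border trehalase, rho = 0.970), *Ormdl3* (a regulator of sphingolipid synthesis, 0.953), and *Cyp2d26* (a cytochrome P450, 0.953), and for *Bco2* they were *Psme2* (0.917), *Mtch2* (0.917), and *Rnf170* (0.915). *Scarb1* was nearest to *Cd300lg* (0.898), *Paqr9* (0.896), and the matrix protein gene *Sparc* (0.894). *Cyp26b1* was nearest to *Timeless* (0.877), *Uhrf1* (0.815), and *Fam206a* (0.813), of which the first 2 act in replicating cells. *Lrat* was nearest to *Gnai3* (0.908), *Sacm1l* (0.898), and *Erlin1* (0.890). The likeness was lower for *Isx* (*Hist1h2bh*, 0.829; *Pglyrp1*, 0.803; *Lyar*, 0.798), *Bco1* (*Nampt*, 0.808; *Upp1*, 0.791; *Atp1b1*, 0.761), *Aldh1a1* (*Pank3*, 0.797; *Lin52*, 0.741; *Entpd5*, 0.739), and *Aldh1a2* (*Ercc8*, 0.727). On deviations from the group means *Treh* and *Ormdl3* were again among the 3 nearest to *Rbp2*, and *Timeless* and *Fam206a* among those nearest to *Cyp26b1*. Only 1 of the 3 was kept for *Scarb1* (*Paqr9*) and for *Lrat* (*Sacm1l*). None of the 3 was kept for *Bco1*, *Bco2*, *Isx*, *Aldh1a1*, or *Aldh1a2*.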

How the data were processed

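Tissue from the distal small intestine was profiled in 24 libraries by bulk RNA-seq after rRNA depletion, with a directional library kit. Per the methods of the study, the authors trimmed reads with Trimmomatic 0.39 (window of 5 bases, quality of 25, reads of at least 30 bases). Mapping and counting used STAR 2.5.3a and the build GRCm38, and the deposited values are raw counts per Ensembl gene. The strand setting of the counting was not given in the sources used here. Symbols were found for 55450 of 55536 identifiers (GENCODE, GRCm38).

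Counts were scaled by TMM and filtered with filterByExpr on the groups (13505 genes kept), and an edgeR 4.0.16 quasi-likelihood model with group, sex, and replicate number was fitted to all 24 libraries in R 4.3.3 (17 residual degrees of freedom), two-sided, with Benjamini-Hochberg adjustment over all genes tested and a threshold of FDR 0.05. The replicate number was kept as a term since the methods of the study describe time blocks. The labels call the libraries of a group biological replicates. CPM are TMM-scaled, log2 CPM use a prior count of 2, and length is the union of exons. Permutation tests of correlations drew 100000 resamples within groups. Alternatives were limma-voom (limma 3.58.1) with and without quality weights, DESeq2 1.42.0, other normalisation, filters, terms, and libraries left out. The proximal and distal marker covariates and correlations were added after seeing the data. Of the steps, the edgeR fit was tested on simulated counts, with known changes by diet and by sex. The members and lists were chosen with earlier results of these data known. Named pathway genes are those called, or, with 0 called, the 3 with the smallest unadjusted p in a comparison. A count of 3 reads corresponds to 0.0722 to 1.65 CPM, depending on depth, which covers counting error only. Of the genes most like each member, the 3 nearest were named, except for *Aldh1a2*, where the nearest alone is given and the rest are not reported here.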

Additional observations from a re-analysis of the deposited data

Results flagged for a closer look

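In 36 groups of 6 libraries (9 genes in 4 groups), 2 libraries lay farther from the rest of their group than Dixon's test allows at the 95% level. Chance alone flags about 1 in 20 groups. *Cyp26b1* stood at 15.8 CPM in CD M3, whereas the remaining CD libraries lay between 2.97 and 4.10 CPM. CD M3 is the library with 85.4% of its reads on 10 genes. *Lrat* stood at 53.7 CPM in CDmetf M3, against 23.5 to 31.9 CPM in the other CDmetf libraries.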

How the results depend on the processing

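The number of retinoid pathway genes called was 0 in all 4 comparisons and the interaction under every alternative but limma-voom with sample quality weights, which called 1 of 39 in HFDmetf vs. CDmetf (*Dhrs4*, logFC 0.79) and 1 of 39 in the interaction (*Itgb7*, −1.88), beside 0.385% and 2.04% of all genes. For females vs. males the count of members and pathway genes was 0 under every alternative but DESeq2, which called 1 (*Rdh16*, 0.93), beside 0.163% of all genes. All counts were also 0 when single libraries were left out in turn.

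The fit without the replicate block called 0 pathway genes in each comparison and gave *Bco1* a logFC of −2.00 and *Rbp2* one of 2.34 in HFD vs. CD. The labels do not tie the numbers to blocks. Deviations of libraries with the same number and sex had a mean correlation of 0.169 over 36 pairs, 23 of them above 0.1. The mean was 0.0987 for the same number in the other sex and −0.0661 for other numbers. Libraries of the same number were thus more alike on average, although single pairs of the same number and sex ranged from −0.452 to 0.758. The number was fitted as an additive term, and no test treated the libraries as pairs.

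The sex differences of 7 members were close enough to 0 to change sign. By limma-voom *Lrat* was at 0.039 and *Cyp26b1* at 0.082, and with quality weights *Cyp26b1* was at 0.27 and *Aldh1a2* at −0.10. Without the filter on low counts *Lrat* was at 0.028 and *Aldh1a1* at 0.027, and without the replicate block *Lrat* was at 0.032 and *Aldh1a1* at 0.014. With the epithelial score as a covariate *Bco1* was at −0.078. With the proximal markers *Bco1* was at −0.34, *Rbp2* at −0.63, *Lrat* at 0.032, and *Aldh1a1* at 0.081, and with the distal markers *Lrat* was at 0.0036 and *Aldh1a1* at 0.0029. Without HFD M2 and HFD F2 *Rbp2* was at −0.011. With single libraries left out, the sex logFC ranged from −0.11 to 0.078 for *Aldh1a1*, −0.10 to 0.054 for *Lrat*, −0.19 to 0.43 for *Bco1*, −0.36 to 0.12 for *Cyp26b1*, −0.033 to 0.12 for *Isx*, and −0.046 to 0.70 for *Rbp2*. The interaction of *Lpl* (2.71) was −0.076 by limma-voom and −0.20 with quality weights. The causes were not tested.

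The correlation of *Isx* and *Bco1* lost its call with sex and number fitted (r = −0.490) and with the epithelial score fitted (r = −0.459). That of *Rbp2* and *Lrat* was −0.128 with the score, and that of *Isx* and *Scarb1* was 0.133 without HFD M2 and HFD F2. *Scarb1*, *Bco1*, and *Cyp26b1* rest on under 10 reads in 1, 2, and 2 libraries, which limits their low values.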
